A study of Homo sapiens with 9 samples.

Results

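Ribosome biogenesis factors are the proteins that transcribe, modify, cut and fold ribosomal RNA (rRNA) and assemble it with ribosomal proteins. A list of 37 such factors was followed here through RNA sequencing of the human cell line MDA-MB-231, which was derived from a triple-negative breast cancer. Members were the rows of the deposited expression table whose gene symbol is on that list. Of the 37, 34 had such a row, out of 46846 features in the table, and FBL, BOP1 and RRN3 were not analysed here.

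The cells were given pladienolide B at 10 nM for 6 h, indisulam at 3.3 µM for 12 h, or DMSO, the solvent control, with a labelled time of 12 h. Each of the 3 groups had 3 libraries of polyadenylated RNA. All groups come from the same line with no labelled genetic change, so they differ in agent and, for pladienolide B, also in time: in every comparison with pladienolide B the drug and the shorter exposure cannot be told apart. Pladienolide B binds the SF3b complex, the part of the U2 snRNP that recognises intron branch sites. Indisulam acts as a molecular glue between RBM39, another splicing factor, and the ubiquitin ligase substrate receptor DCAF15, which leads to loss of RBM39 protein. Whether the replicas named in the labels are separate cultures is not stated there, and the p-values reflect only how far these libraries differ, which may be technical.

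Ribosome synthesis starts in the nucleolus, where RNA polymerase I transcribes a long rRNA precursor. Small nucleolar ribonucleoproteins (snoRNPs) modify the precursor, box C/D particles by methylation and box H/ACA particles by pseudouridylation, while the small subunit processome folds and cuts the part that becomes the small (40S) subunit. Other sets of factors mature the large (60S) subunit. Many of the genes involved are known targets of the transcription factor MYC, which binds the E-box sequence CACGTG, and several carry snoRNA genes in their introns.

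Promoter sequence is shown first, for the E-box, the only motif searched for. Promoter windows of 250 bases before and 50 bases after the gene start, from RefSeq on build GRCh38.p14, were given for 30 of the 34 members and not for NOP58, NOLC1, RRP12 and RRP1B. The palindrome CACGTG, which reads the same on both strands, was found in 13 of these 30 windows (43.3%). By the same search it was found in 7.26% of all 35116 promoter windows and in 9.89% of the 10875 windows of features that were tested. A match describes the letters in a window and is not evidence of binding. There were 15 matches, since NOP10 and UTP18 had 2 each, and in 10 members a match lay within 20 bases of the gene start. These 10 are printed below with up to 10 flanking bases, on the strand of the gene, with the E-box in capitals; their choice was made after the data were seen.

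NOP10: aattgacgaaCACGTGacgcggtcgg
UTP4: agcgcgcgcgCACGTGgggccggggc
UTP18: agcgaggttcCACGTGagcgcctgcg
UTP20: tttttccgtcCACGTGacccactcag
WDR43: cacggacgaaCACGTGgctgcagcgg
NOP14: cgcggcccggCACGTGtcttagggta
RRP9: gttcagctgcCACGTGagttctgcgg
PES1: cttggcagggCACGTGcgggaggaag
GNL2: acgtcgtgcaCACGTGgtccggcgtg
MRTO4: tcttccgccgCACGTGgattcagcgc

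The first base of the E-box lay 5 bases before the gene start in RRP9 and 16 before it in UTP4, for example. In WDR43 and GNL2 it was base 4 of the gene, with the start as base 1. The printed windows of box H/ACA and PeBoW members lie at chr15:34343132-34343157 (NOP10, minus strand) and chr22:30591882-30591907 (PES1, minus strand). The gene start used here is that of the RefSeq window and need not be that of the deposited row. For PES1 that row spans chr22:30576625-30607014, so the printed window lies well inside it. Those of the processome members lie at chr16:69132623-69132648 (UTP4, plus strand), chr17:51260540-51260565 (UTP18, plus strand), chr12:101280085-101280110 (UTP20, plus strand), chr2:28894660-28894685 (WDR43, plus strand), chr4:2963376-2963401 (NOP14, minus strand) and chr3:51941894-51941919 (RRP9, minus strand). Those of the 60S members lie at chr1:37595919-37595944 (GNL2, minus strand) and chr1:19251809-19251834 (MRTO4, plus strand).

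Members with an E-box were called in both directions. With pladienolide B, 4 of the 13 were higher and 7 lower than with DMSO, against 4 higher and 7 lower of the 17 members whose window lacks it, beside 34.3% higher and 35.5% lower of all features (limma). With each library scaled to the same total, 1 was higher and 9 lower of the 13, against 3 higher and 13 lower of the 17, beside 16.2% and 53.9% of all features. With indisulam, 0 were higher and 3 lower of the 13, against 3 higher and 2 lower of the 17, beside 14.5% and 12.4% of all features. With the replicate number as a block these indisulam counts were 2 higher and 6 lower of the 13, against 5 higher and 5 lower of the 17, beside 21.1% and 16.3%. MYC transcript itself averaged 33215 ± 1476 normalised reads in pladienolide B libraries, 6976 ± 69.2 in indisulam libraries and 5730 ± 167 in DMSO libraries (SD, n = 3 each). Its part in any member's level was not tested.

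Also shown are the promoter windows of the members with the largest changes after pladienolide B, and none of these 4 held CACGTG. UTP3 and NHP2 had the largest rises. UBTF and GNL3 had the largest falls among members with a window, RRP1B having none. All 4 windows run 5′ to 3′ along the gene, UTP3 at chr4:70688282-70688581 (plus strand), NHP2 at chr5:178153836-178154135 (minus strand), UBTF at chr17:44220833-44221132 (minus strand) and GNL3 at chr3:52685670-52685969 (plus strand).

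UTP3: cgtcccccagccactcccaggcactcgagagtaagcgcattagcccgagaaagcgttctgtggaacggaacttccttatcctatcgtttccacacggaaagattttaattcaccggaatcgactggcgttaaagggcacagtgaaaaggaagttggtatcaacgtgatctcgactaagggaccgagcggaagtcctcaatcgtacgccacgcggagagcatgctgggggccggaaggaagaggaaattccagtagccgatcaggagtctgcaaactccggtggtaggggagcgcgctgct
NHP2: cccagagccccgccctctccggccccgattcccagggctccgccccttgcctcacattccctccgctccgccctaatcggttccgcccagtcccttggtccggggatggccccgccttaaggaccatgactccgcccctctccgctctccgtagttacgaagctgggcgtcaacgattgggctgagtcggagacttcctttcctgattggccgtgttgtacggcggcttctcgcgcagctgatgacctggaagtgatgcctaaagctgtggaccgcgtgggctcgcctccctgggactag
UBTF: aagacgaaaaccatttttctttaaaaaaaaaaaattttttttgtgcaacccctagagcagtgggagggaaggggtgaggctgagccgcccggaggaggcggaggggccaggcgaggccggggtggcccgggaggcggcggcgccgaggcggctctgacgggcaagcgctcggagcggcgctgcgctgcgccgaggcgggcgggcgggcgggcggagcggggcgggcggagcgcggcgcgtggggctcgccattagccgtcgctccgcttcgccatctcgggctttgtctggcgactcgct
GNL3: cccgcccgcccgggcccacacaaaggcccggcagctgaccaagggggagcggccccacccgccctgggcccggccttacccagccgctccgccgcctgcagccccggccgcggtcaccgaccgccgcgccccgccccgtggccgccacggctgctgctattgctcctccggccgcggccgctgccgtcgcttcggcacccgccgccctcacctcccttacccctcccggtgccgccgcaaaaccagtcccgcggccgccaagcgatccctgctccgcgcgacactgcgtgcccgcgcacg

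The libraries held 59312100 to 83910831 reads. Values are normalised reads, that is, read counts divided by a size factor per library, as the authors deposited them. A value of 2.48 to 3.87, depending on the library, corresponds to 3 reads, the upper limit that a count of 0 allows, and this limit covers counting error only. All 34 members lay far above it and all passed the filter for testing, a mean of at least 10. The mesenchymal gene VIM, a marker of this line, reached 165076 to 194494 normalised reads with pladienolide B, 113029 to 122921 with indisulam and 123380.0 to 132625 with DMSO. The oestrogen receptor gene ESR1 was at most 2.04 and the progesterone receptor gene PGR at most 1.68 in any library, while ERBB2 was present at 5102 to 5977 across the 9 libraries. SF3B1, an SF3b subunit, averaged 18833 ± 1132 in pladienolide B libraries, 14943 ± 74.2 in indisulam libraries and 11329.5 ± 502 in DMSO libraries. RBM39 averaged 18292 ± 848 in pladienolide B libraries, 37646 ± 950.1 in indisulam libraries and 15036 ± 392 in DMSO libraries. Both transcripts were called higher with each drug by limma under the deposited scaling. Their calls with each library scaled to the same total are not given here, so their pladienolide B rises hold for the deposited scaling only.

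The summed normalised reads of the 34 members were 0.405% to 0.466% of the total in pladienolide B libraries, 0.445% to 0.502% in indisulam libraries and 0.493% to 0.539% in DMSO libraries. The sums themselves were 363256 ± 21257 with pladienolide B, 303228 ± 20282 with indisulam and 314167 ± 12590.4 with DMSO. The totals over all features were not equal: 84689853 ± 2607970.0 with pladienolide B, 63349449 ± 409132 with indisulam and 61016460.0 ± 574381 with DMSO. The choice of scaling therefore bears on every comparison that includes pladienolide B, and counts of members called with pladienolide B are also given with each library scaled to the same total. The snoRNA features, per-kilobase levels and correlations that follow use the deposited scaling alone. In bulk RNA, fewer cells and less RNA per cell cannot be told apart.

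After pladienolide B, 9 of the 34 members rose and 15 fell relative to DMSO, and 10 did not pass the test (limma on log2(value + 1), Benjamini-Hochberg adjusted p under 0.05 over all 16846 features tested). Over all features tested, 34.3% were higher and 35.5% lower, beside 26.5% and 44.1% of the members, shares that were not tested against each other. The member median was a log2 fold change of -0.15, beside -0.011 over all features. A change of at least 2-fold was called for 1 member upward and 5 downward, with backgrounds of 9.62% and 17.9%. The values of the treated and DMSO libraries did not overlap for 22 members (64.7%), 7 above and 15 below, beside 71.8% of all features, 35.5% above and 36.3% below. With each library scaled to the same total instead, 4 members were higher and 25 lower (background 16.2% and 53.9%), with a member median of -0.62 and a median over all features of -0.48. Under that scaling 1 member was at least 2-fold higher and 8 at least 2-fold lower (background 5.35% and 29.9%), and 4 lay above and 23 below all DMSO libraries (background 17.1% and 55.3%). The calls of BYSL, MRTO4, NCL, NOP58 and PES1 were lost under it, and DKC1, GAR1, NOLC1, NOP14, NOP56, POLR1B, RRP9, RRP12, UTP15 and WDR12 were called lower.

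After indisulam, 3 members rose and 7 fell relative to DMSO, and 24 did not pass the test, against a background of 14.5% higher and 12.4% lower. The member median was -0.11 and that of all features 0.047. UTP6 alone passed 2-fold, downward (background 2.17% higher and 1.47% lower). The libraries did not overlap for 17 members (50%), 5 above and 12 below, beside 48.4% of all features, 27.4% above and 21% below. The replicate number, which was taken as pairing the libraries across groups although the labels do not say so, changed the count of calls when it was fitted as a block: 7 members were then higher and 15 lower, with backgrounds of 21.1% and 16.3%. When only the 6 libraries compared were fitted, 6 were higher and 10 lower, with backgrounds of 20.8% and 16.3%. The count higher was 5 without pladienolide B replicate 2 (background 17.7%). The count lower was 4 without indisulam replicate 1 (background 9.45%), DMSO replicate 2 (8.84%) or DMSO replicate 3 (9.5%). The same block gave 11 higher and 17 lower with pladienolide B, with backgrounds of 36.1% and 37.1%, and 12 higher and 12 lower between the drugs, with backgrounds of 36.4% and 37.2%.

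Between the drugs, 12 members were higher and 11 lower with pladienolide B than with indisulam, with 11 not called, beside 34.7% higher and 35.6% lower of all features. Of these, UTP3 was at least 2-fold higher and NOB1 and UBTF at least 2-fold lower (background 8.32% and 18.4%). The libraries of the 2 drugs did not overlap for 21 members (61.8%), 10 above and 11 below, beside 71.8% of all features, 35.6% above and 36.2% below. With the same total per library the split was 5 higher and 21 lower (background 17.9% and 50.4%), with 0 members at least 2-fold higher and 8 at least 2-fold lower (background 4.01% and 29%) and 5 above and 21 below without overlap (background 19.1% and 52%). Both drugs were compared with the same DMSO libraries, so the pairs of values that follow are not independent.

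**Figure D1:**
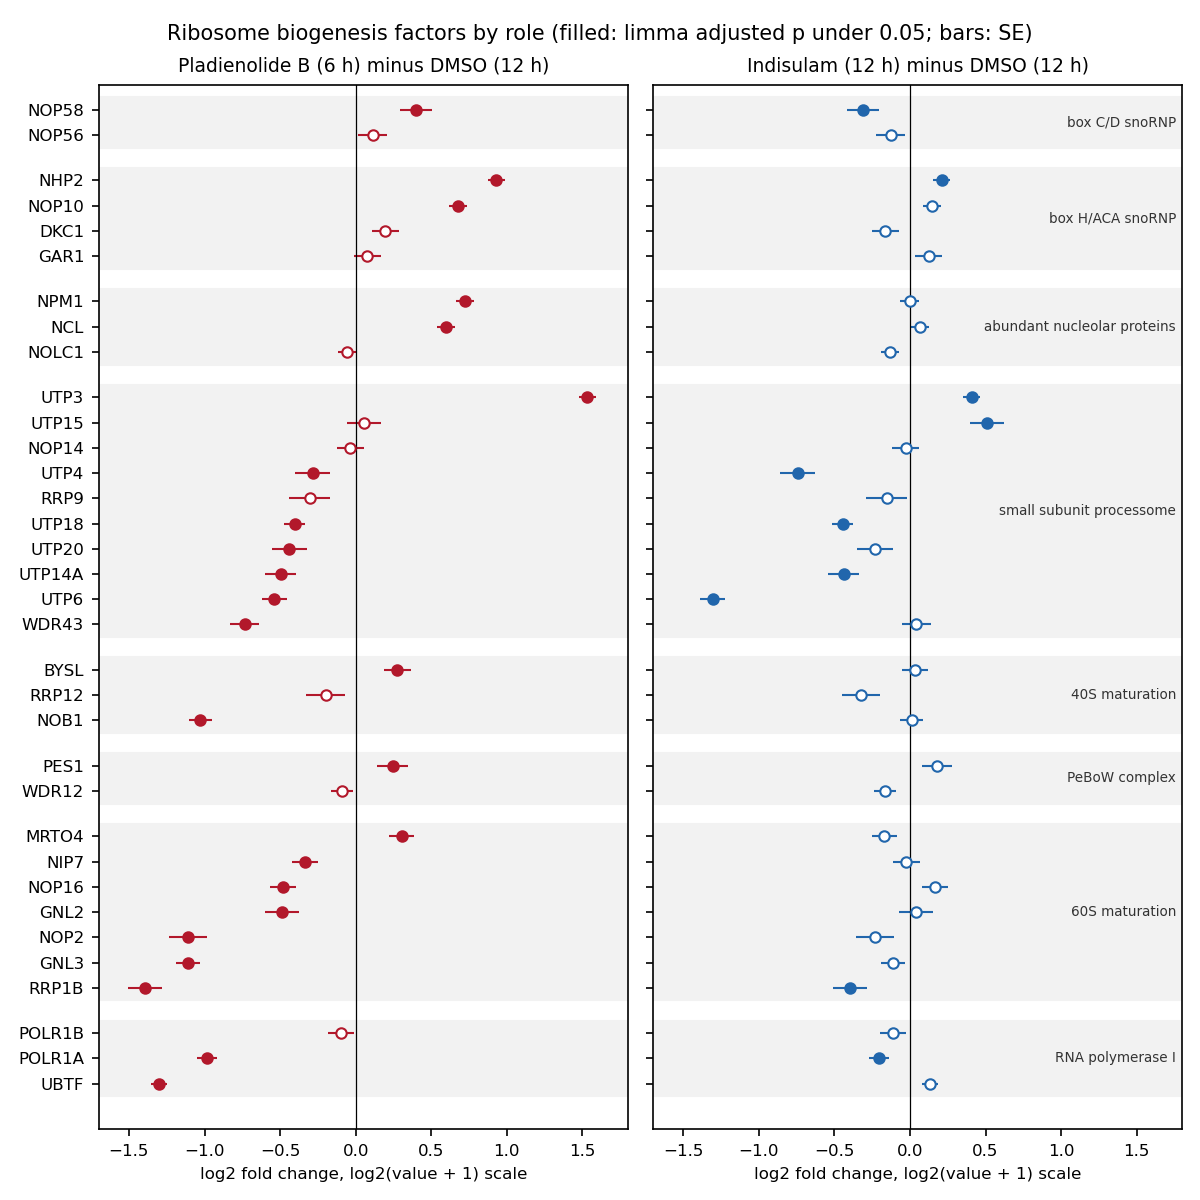
Log2 fold change of each of the 34 members (x axis, log2(value + 1) scale) for pladienolide B minus DMSO (left) and indisulam minus DMSO (right), grouped by role down the page; bars are SE, filled points have a limma adjusted p under 0.05. UTP3 at 1.53 and RRP1B at -1.39 bound the left panel, UTP15 at 0.51 and UTP6 at -1.30 the right.

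The box C/D proteins build the guide particles that methylate rRNA. NOP58, a core protein of these particles, went opposite ways with the 2 drugs. NOP58 had 7495, 6414 and 9130.1 normalised reads in pladienolide B libraries, 4329, 4677 and 4945 in indisulam libraries, and 5563, 5506 and 6261 in DMSO libraries. All 3 pladienolide B libraries lay above, and all 3 indisulam libraries below, every DMSO library. The log2 fold change was 0.40 ± 0.11 (SE), adjusted p = 0.00392 with pladienolide B and -0.31 ± 0.11, adjusted p = 0.0419 with indisulam by limma. The indisulam call is fragile: it was lost in each of the 6 fits that left out an indisulam or a DMSO library, with limma adjusted p of 0.0565 to 0.155. Under the same total per library NOP58 did not rise with pladienolide B, with a log2 value of -0.074. NOP56, its partner in the particle, averaged 15715 ± 2020.1 in pladienolide B libraries, 13272 ± 1214 in indisulam libraries and 14503 ± 1295 in DMSO libraries, and was called with neither drug (0.11 ± 0.10, adjusted p = 0.316 with pladienolide B and -0.13 ± 0.10, adjusted p = 0.357 with indisulam, limma). The replicate block called NOP56 higher with pladienolide B (adjusted p 0.0266) and lower with indisulam (0.0269), while under the same total per library it was called lower with pladienolide B (-0.36, adjusted p 0.00545, limma). Between the drugs NOP58 was higher with pladienolide B (0.71 ± 0.11, adjusted p = 3.44e-05, limma). NOP56 was too (0.24 ± 0.10, adjusted p = 0.0386, limma), a call lost without pladienolide B replicate 2 or 3, indisulam replicate 1 or DMSO replicate 2, at adjusted p of 0.0532 to 0.175, and its value turned to -0.18 under the same total.

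Of the box H/ACA proteins, which serve the pseudouridylation particles and telomerase RNA, NHP2 and NOP10 rose with pladienolide B. NHP2 had 16809, 18834 and 17116 normalised reads in pladienolide B libraries, 10546, 10451 and 11022 in indisulam libraries, and 9149, 9406 and 9097 in DMSO libraries. The groups did not overlap, with pladienolide B libraries highest and indisulam libraries between them and DMSO. NHP2 rose 1.91-fold with pladienolide B (0.93 ± 0.06, adjusted p = 5.62e-09) and 1.16-fold with indisulam (0.21 ± 0.06, adjusted p = 0.0134, limma). The indisulam call was lost without indisulam replicate 3 (adjusted p 0.0656) or DMSO replicate 3 (0.0508). NOP10 had 9438, 10581 and 10010.4 normalised reads in pladienolide B libraries, 6824, 7039 and 6912 in indisulam libraries, and 6268, 6541 and 5949 in DMSO libraries. NOP10, the small protein that contacts the catalytic subunit, was higher in every pladienolide B library than in any other (0.68 ± 0.06, adjusted p = 2.08e-07, limma); its indisulam libraries also lay above the DMSO ones but it was not called (0.15 ± 0.06, adjusted p = 0.0822), and 3 alternatives called it, at limma adjusted p of 0.0209 with the replicate block, 0.0316 with only the 6 libraries compared and 0.0457 without pladienolide B replicate 2. The pseudouridine synthase DKC1 averaged 15259.7 ± 1804 in pladienolide B libraries, 11888 ± 1203 in indisulam libraries and 13282 ± 907 in DMSO libraries (0.20 ± 0.09, adjusted p = 0.0688 with pladienolide B and -0.16 ± 0.09, adjusted p = 0.208 with indisulam, limma). GAR1, which completes the particle, averaged 2885 ± 232 in pladienolide B libraries, 2987 ± 349.7 in indisulam libraries and 2734 ± 164 in DMSO libraries (0.076 ± 0.09, adjusted p = 0.467 with pladienolide B and 0.12 ± 0.09, adjusted p = 0.343 with indisulam, limma). Neither was called against DMSO. The replicate block called DKC1 higher with pladienolide B (adjusted p 0.000885) and lower with indisulam (0.00899), by limma. With equal totals both were called lower with pladienolide B, DKC1 at -0.28 (adjusted p 0.0193) and GAR1 at -0.40 (adjusted p 0.000966, limma). DKC1 was also called higher with pladienolide B than with DMSO without pladienolide B replicate 1 (adjusted p 0.0165) or indisulam replicate 1 (0.0492, limma). Between the drugs, DKC1 was higher with pladienolide B (0.36 ± 0.09, adjusted p = 0.00291, limma), though it was at -0.060 under the same total. The NHP2 row overlaps RMND5B, which has 5.03% of its mean.

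The abundant nucleolar proteins NPM1 and NCL rose with pladienolide B. NPM1 had 104176, 107443 and 107341 normalised reads in pladienolide B libraries, 58388, 66782 and 68092 in indisulam libraries, and 62312, 66451 and 64462 in DMSO libraries. NPM1, a chaperone of the granular outer nucleolus, was higher in all 3 pladienolide B libraries than in any other, while indisulam and DMSO libraries overlapped. Its log2 fold change was 0.72 ± 0.06, adjusted p = 1.25e-07 with pladienolide B and -0.0025 ± 0.06 (SE), adjusted p = 0.982, with indisulam (limma). NCL had 53894, 56299.6 and 59163 normalised reads in pladienolide B libraries, 36383, 39805 and 40780.5 in indisulam libraries, and 35789.5, 37268 and 38706 in DMSO libraries. NCL, nucleolin, an rRNA-binding protein, was also higher in all 3 pladienolide B libraries than in any other (0.60 ± 0.06, adjusted p = 5.93e-07 with pladienolide B and 0.065 ± 0.06, adjusted p = 0.453 with indisulam, limma), but under the same total per library its pladienolide B call was lost (0.13, adjusted p 0.0653). NOLC1, which shuttles snoRNPs to the nucleolus, averaged 15675 ± 814 in pladienolide B libraries, 14873 ± 856 in indisulam libraries and 16309 ± 605 in DMSO libraries and was called with neither drug (-0.058 ± 0.06, adjusted p = 0.405 with pladienolide B and -0.13 ± 0.06, adjusted p = 0.117 with indisulam, limma), though it was called lower with both under the same total per library (-0.53 with pladienolide B and -0.19 with indisulam). Its indisulam call was also gained with TMM scaling (adjusted p 0.0447) and the replicate block (0.0164, limma).

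**Figure D2:**
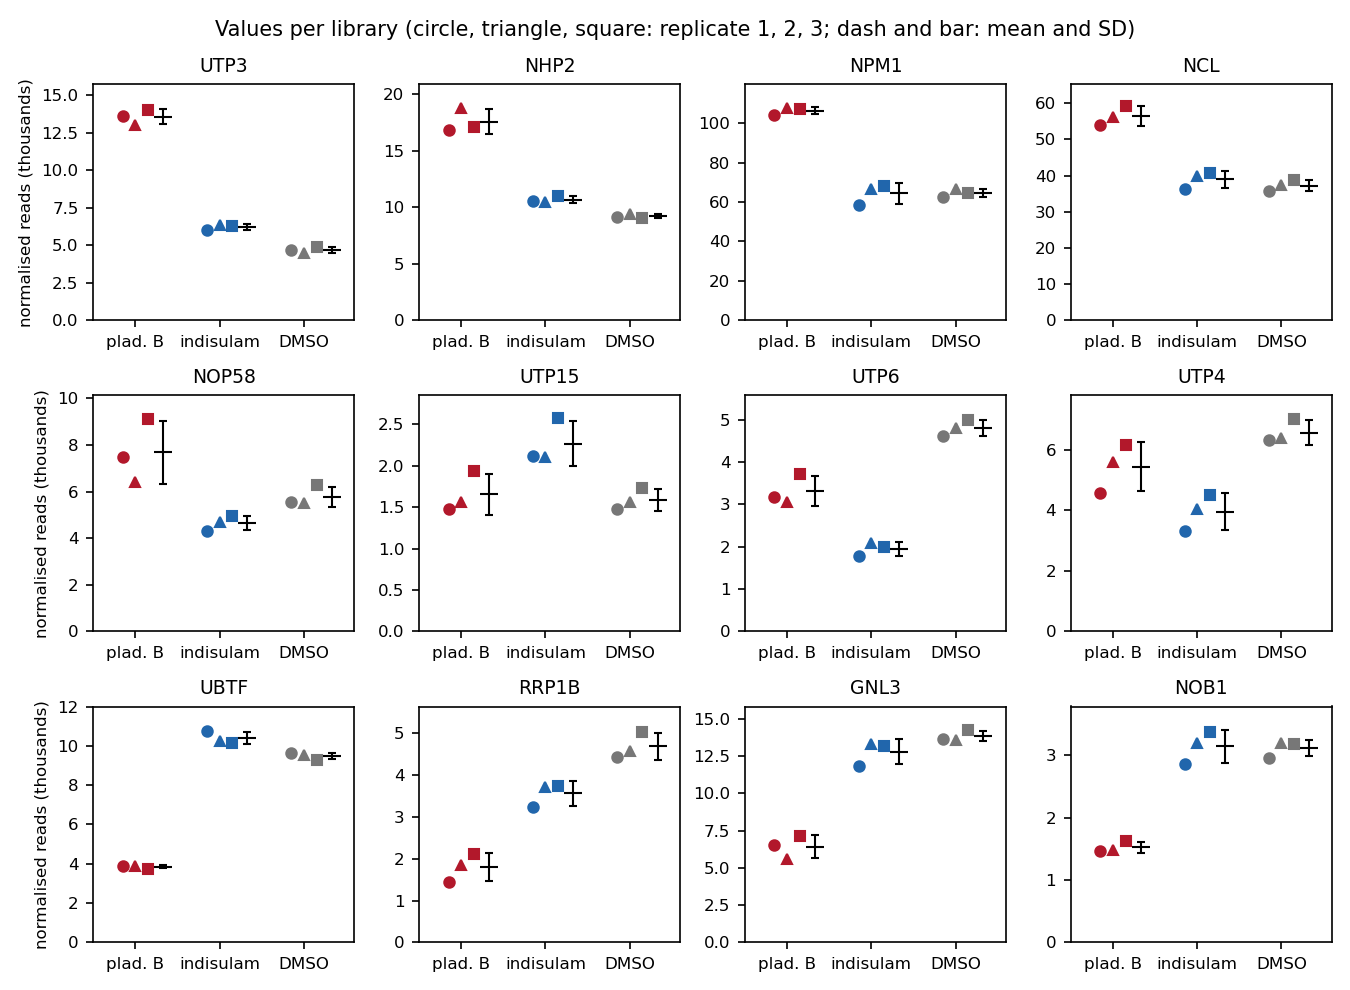
Normalised reads (y axis, in units of 1000, from 0) of 12 members in each library of pladienolide B, indisulam and DMSO; symbols mark replicates 1 to 3, dash and bar the mean and SD. UTP3, NHP2, NPM1 and NCL are highest with pladienolide B, UBTF, RRP1B, GNL3 and NOB1 lowest with it, and UTP6 and UTP4 lowest with indisulam.

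The small subunit processome held both the largest rise and the largest indisulam fall. Of its 10 members, 1 rose and 6 fell with pladienolide B, beside 34.3% higher and 35.5% lower of all features, and 2 rose and 4 fell with indisulam, beside 14.5% and 12.4%. With each library at the same total, 1 was higher and 9 lower with pladienolide B, beside 16.2% and 53.9%. UTP3 had 13635, 13032 and 14044 normalised reads in pladienolide B libraries, 6024, 6373 and 6297 in indisulam libraries, and 4683, 4487 and 4915 in DMSO libraries. UTP3, also called SAS10, a processome component, rose 2.89-fold with pladienolide B (1.53 ± 0.06, adjusted p = 8.54e-11) and 1.33-fold with indisulam (0.41 ± 0.06, adjusted p = 0.000203, limma), without overlap between any of the groups. It lies at chr4:70688517-70690551 (hg38) and is the only member without an intron in its GENCODE v29 model. UTP15 had 1474, 1559 and 1939 normalised reads in pladienolide B libraries, 2119, 2103 and 2579 in indisulam libraries, and 1475, 1561 and 1729 in DMSO libraries. UTP15, a subunit of the UTPA complex that joins the nascent precursor early, was higher in every indisulam library than in any DMSO or pladienolide B library (0.51 ± 0.11, adjusted p = 0.00443 against DMSO, limma), and was not called with pladienolide B (0.054 ± 0.11, adjusted p = 0.68). It was called lower with pladienolide B under the same total per library (-0.42, adjusted p 0.00745, limma).

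UTP6 had 3186, 3054 and 3715 normalised reads in pladienolide B libraries, 1774, 2085 and 1988 in indisulam libraries, and 4625, 4798 and 5002 in DMSO libraries. UTP6, of the UTPB complex, was lowest with indisulam, intermediate with pladienolide B and highest with DMSO, with no overlap. It fell to 0.405 times its DMSO level with indisulam (-1.30 ± 0.08, adjusted p = 9.21e-07) and to 0.688 times with pladienolide B (-0.54 ± 0.08, adjusted p = 5.66e-05, limma). UTP4 had 4557, 5595 and 6145 normalised reads in pladienolide B libraries, 3304, 4047 and 4519 in indisulam libraries, and 6306, 6372 and 7028 in DMSO libraries. UTP4, also known as cirhin, a UTPA subunit, had the same order, but its pladienolide B call (-0.28 ± 0.12, adjusted p = 0.0428) was lost without pladienolide B replicate 1 or 2, indisulam replicate 2 or any DMSO replicate, at adjusted p of 0.0524 to 0.206. With indisulam its log2 fold change was -0.74 ± 0.12, adjusted p = 0.000469 by limma. The difference between the drugs was no longer called under the same total per library (0.040, adjusted p 0.783, limma). UTP18, of the UTPB complex, fell with both drugs, -0.40 ± 0.07, adjusted p = 0.000133 with pladienolide B and -0.45 ± 0.07, adjusted p = 0.000431 with indisulam (limma). UTP14A, whose yeast counterpart activates a helicase of the processome, also fell with both, -0.50 ± 0.10, adjusted p = 0.000685 with pladienolide B and -0.44 ± 0.10, adjusted p = 0.00684 with indisulam (limma). No difference between the drugs passed the test for UTP18 (0.04 ± 0.07, adjusted p 0.595) or UTP14A (-0.06 ± 0.10, adjusted p 0.633) by limma, which does not show that they act alike. Both were called lower with pladienolide B than with indisulam under the same total per library, UTP18 at -0.38 (adjusted p 0.000544) and UTP14A at -0.48 (adjusted p 0.0018, limma).

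WDR43 had 3189, 3264 and 4289.8 normalised reads in pladienolide B libraries, 5809, 6133 and 6325 in indisulam libraries, and 5741, 5725 and 6275 in DMSO libraries. WDR43, a UTPA subunit, fell with pladienolide B (-0.74 ± 0.10, adjusted p = 1.09e-05) and was not called with indisulam (0.043 ± 0.10, adjusted p = 0.785), and the drugs differed (-0.78 ± 0.10, adjusted p = 6.17e-06, limma). UTP20, a very large scaffold protein, averaged 1500.5 ± 264 in pladienolide B libraries, 1722 ± 201 in indisulam libraries and 2018 ± 137 in DMSO libraries and fell with pladienolide B (-0.44 ± 0.12, adjusted p = 0.00444) without being called with indisulam (-0.23 ± 0.12, adjusted p = 0.165, limma), where the replicate block called it (adjusted p 0.0231). NOP14 and RRP9, a processome core protein and a U3 snoRNP protein, were called with neither drug. NOP14 averaged 10883 ± 1165 in pladienolide B libraries, 10934 ± 1015 in indisulam libraries and 11143 ± 960.3 in DMSO libraries. RRP9 averaged 3612 ± 783 in pladienolide B libraries, 3953 ± 323 in indisulam libraries and 4404 ± 457 in DMSO libraries, with a pladienolide B log2 value of -0.31 ± 0.13, adjusted p = 0.057 by limma. RRP9 was called lower with pladienolide B in 7 of 19 alternatives, among them the replicate block (adjusted p 0.00112), DESeq2 (0.0475), TMM scaling (0.0201) and equal totals (0.00019), and without pladienolide B replicate 2 (0.0165), pladienolide B replicate 3 (0.0294) or DMSO replicate 1 (0.0305, limma). NOP14 was called lower under the same total per library (-0.51, adjusted p 0.000222, limma). The NOP14 row shares part of its span with ADD1, which has 127% of its mean signal, so its value is uncertain where the counting could not tell them apart.

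Of the 40S maturation factors, NOB1, the nuclease that makes the 3′ end of small subunit rRNA, fell with pladienolide B. NOB1 had 1465, 1487 and 1624 normalised reads in pladienolide B libraries, 2855, 3187 and 3372 in indisulam libraries, and 2961, 3188 and 3180.1 in DMSO libraries. Every pladienolide B library was below every other library, and the indisulam and DMSO libraries overlapped. The log2 fold change was -1.03 ± 0.08, adjusted p = 4.21e-08 with pladienolide B and 0.011 ± 0.08, adjusted p = 0.935 with indisulam (limma). BYSL, bystin, averaged 3546 ± 404 in pladienolide B libraries, 2993 ± 232 in indisulam libraries and 2922 ± 179.7 in DMSO libraries; its rise with pladienolide B (0.27 ± 0.09, adjusted p = 0.0137, limma) was lost without pladienolide B replicate 3 (adjusted p 0.0599), without DMSO replicate 2 (0.0565) and with TMM scaling, its libraries overlapped, and it turned to -0.20 under the same total. RRP12, an export factor, averaged 2607 ± 477 in pladienolide B libraries, 2375 ± 267 in indisulam libraries and 2970.3 ± 329 in DMSO libraries and was called with neither drug (-0.20 ± 0.13, adjusted p = 0.177 with pladienolide B and -0.32 ± 0.13, adjusted p = 0.0767 with indisulam, limma). The replicate block called RRP12 lower with pladienolide B (adjusted p 0.0108) and with indisulam (0.00118), where 5 of 19 alternatives called it in all. RRP12 was also called with pladienolide B without pladienolide B replicate 3 (adjusted p 0.0351), and the same total per library called it lower with pladienolide B (-0.67, adjusted p 0.000525, limma).

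The PeBoW complex of PES1, BOP1 and WDR12 acts on the large subunit precursor. PES1 averaged 10796 ± 1703 in pladienolide B libraries, 10257 ± 782 in indisulam libraries and 9049.5 ± 608 in DMSO libraries; its call with pladienolide B (0.24 ± 0.10, adjusted p = 0.0447, limma) was lost when any library other than pladienolide B replicate 1 or indisulam replicate 1 was left out, at adjusted p of 0.0527 to 0.174, and its libraries overlapped those of DMSO. Under the same total per library it was at -0.23. With indisulam it was called higher by the replicate block (0.18, adjusted p 0.0144) and with only the 6 libraries compared (0.043, limma). WDR12 averaged 2868 ± 161 in pladienolide B libraries, 2717 ± 205 in indisulam libraries and 3047 ± 126 in DMSO libraries and was called with neither drug (-0.088 ± 0.07, adjusted p = 0.301 with pladienolide B and -0.17 ± 0.07, adjusted p = 0.111 with indisulam, limma). WDR12 was called lower with indisulam by the replicate block (adjusted p 0.0354) and with pladienolide B under the same total per library (-0.56, adjusted p 2.93e-05, limma).

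All 7 of the other 60S factors were called with pladienolide B, 1 higher and 6 lower, beside 34.3% higher and 35.5% lower of all features, and 1 was lower with indisulam, beside 12.4%. Of the 7, 0 were higher and 6 lower with pladienolide B under the same total per library, beside 16.2% and 53.9%. With the replicate block, 1 was higher and 3 lower with indisulam, beside 21.1% and 16.3%: NOP16 was higher (0.17, adjusted p 0.0154), and NOP2 (adjusted p 0.00897) and MRTO4 (-0.17, adjusted p 0.0141) were lower besides RRP1B (limma). RRP1B had 1441, 1847 and 2107 normalised reads in pladienolide B libraries, 3223, 3699 and 3745 in indisulam libraries, and 4434, 4573 and 5035 in DMSO libraries. RRP1B, a nucleolar partner of protein phosphatase 1, had the largest fall among members (-1.39 ± 0.11, adjusted p = 1.11e-07, to 0.380 times the DMSO level) and also fell with indisulam (-0.40 ± 0.11, adjusted p = 0.0212, limma), a call lost without indisulam replicate 1, DMSO replicate 2 or DMSO replicate 3, at adjusted p of 0.0581 to 0.0925. In the deposited table it spans chr21:43659546-43696079 (hg38). GNL3 had 6533, 5624 and 7108 normalised reads in pladienolide B libraries, 11827, 13334 and 13172 in indisulam libraries, and 13651, 13584 and 14214 in DMSO libraries. GNL3, nucleostemin, a GTP-binding nucleolar protein, fell to 0.463 times its DMSO level with pladienolide B (-1.11 ± 0.08, adjusted p = 2.46e-08, limma) and was not called with indisulam (-0.11 ± 0.08, adjusted p = 0.311), although its indisulam libraries also lay below the DMSO ones. GLT8D1, which overlaps it, has 15.7% of its mean.

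NOP2 had 2125, 2605 and 3148 normalised reads in pladienolide B libraries, 4168, 4906 and 5286 in indisulam libraries, and 5256, 5374 and 6199 in DMSO libraries. NOP2, an rRNA cytosine methyltransferase, fell with pladienolide B in every library (-1.11 ± 0.12, adjusted p = 2.52e-06), while its indisulam and DMSO ranges overlapped (-0.23 ± 0.12, adjusted p = 0.192, limma). GNL2, a GTPase of the same family as GNL3, averaged 5307 ± 1104 in pladienolide B libraries, 7549 ± 429.9 in indisulam libraries and 7360.3 ± 531 in DMSO libraries, with a fall after pladienolide B (-0.49 ± 0.11, adjusted p = 0.00143, limma). NOP16, a nucleolar protein of large subunit assembly, averaged 4164 ± 482 in pladienolide B libraries, 6501 ± 479 in indisulam libraries and 5793 ± 356 in DMSO libraries and fell with pladienolide B (-0.48 ± 0.09, adjusted p = 0.000205, limma); its neighbour HIGD2A overlaps its span at 127% of its mean and went the other way with pladienolide B (0.73, adjusted p 1.02e-07, limma). NIP7, a factor needed for large subunit rRNA processing, averaged 4884 ± 615 in pladienolide B libraries, 6047 ± 469 in indisulam libraries and 6140.2 ± 292 in DMSO libraries and fell with pladienolide B (-0.34 ± 0.09, adjusted p = 0.00358, limma). MRTO4, which resembles a ribosomal stalk protein and holds its place during assembly, was the 1 that rose. MRTO4 had 5328, 6077 and 6215 normalised reads in pladienolide B libraries, 3859.9, 4284 and 4529.8 in indisulam libraries, and 4467, 4563 and 5236 in DMSO libraries. Its pladienolide B libraries lay above all the others (0.30 ± 0.08, adjusted p = 0.00507, limma), although the same total per library turned the value to -0.17.

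Among the RNA polymerase I genes, UBTF, the factor that keeps rRNA genes open for transcription, fell with pladienolide B. UBTF had 3878, 3912 and 3753 normalised reads in pladienolide B libraries, 10762, 10265 and 10166 in indisulam libraries, and 9614, 9533 and 9289 in DMSO libraries. Each pladienolide B library was far below every other. UBTF fell to 0.406 times its DMSO level with pladienolide B (-1.30 ± 0.05, adjusted p = 1.5e-10) and was not called with indisulam, whose libraries lay above the DMSO ones (0.13 ± 0.05, adjusted p = 0.0755, limma), although 4 of 19 alternatives called it higher, the replicate block among them (adjusted p 0.0233); the drugs differed by -1.43 ± 0.05, adjusted p = 7.6e-11 (limma). POLR1A had 5505, 6309 and 6313 normalised reads in pladienolide B libraries, 9925, 10511 and 10579.9 in indisulam libraries, and 11268, 12111 and 12371 in DMSO libraries. POLR1A, the largest subunit of the polymerase, fell with both drugs, -0.98 ± 0.07, adjusted p = 1.48e-08 with pladienolide B and -0.20 ± 0.07, adjusted p = 0.0343 with indisulam (limma); the indisulam call was lost when any of indisulam replicates 1 to 3 or DMSO replicates 2 and 3 was left out (adjusted p 0.0666 to 0.125). POLR1B, the second largest subunit, averaged 2300.3 ± 216 in pladienolide B libraries, 2273 ± 188 in indisulam libraries and 2456 ± 159 in DMSO libraries and was called with neither drug (-0.097 ± 0.09, adjusted p = 0.343 with pladienolide B and -0.11 ± 0.09, adjusted p = 0.375 with indisulam, limma). It was called lower with pladienolide B under the same total per library (-0.57, adjusted p 8.46e-05, limma).

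Across the members, NHP2 and UTP3 were called higher with both drugs and POLR1A, RRP1B, UTP4, UTP6, UTP14A and UTP18 lower with both. NOP58 was called in opposite directions, and 9 members were called with neither drug. With the replicate block, which takes the replicate number as a pairing, 4 members were higher with both drugs, 9 lower with both and 3, GAR1, NOP14 and POLR1B, called with neither. DKC1, MRTO4 and NOP56 then joined NOP58 as higher with pladienolide B and lower with indisulam, and NOP16 and UBTF were lower with pladienolide B and higher with indisulam. Under the same total per library 2 were higher with both, 7 lower with both, and UTP15 alone was called in opposite directions, lower with pladienolide B. Both comparisons share the DMSO libraries, so the paired calls are not independent. The share of all features with each pair of calls is not given here, and these counts describe the members without a background.

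Per kilobase of merged exon in the GENCODE v29 models, members differed widely in level. NPM1 stood highest in every group, at 40798 normalised reads per kilobase with pladienolide B, 24720 with indisulam and 24715 with DMSO. NHP2 had 20331 per kilobase with pladienolide B, 12339 with indisulam and 10656 with DMSO. NOP10 had 18068 with pladienolide B, 12500.0 with indisulam and 11287 with DMSO, and NCL came next in each group. UTP20 was lowest in each group, at 166 with pladienolide B, 191 with indisulam and 224 with DMSO. NPM1 has 45 named pseudogenes in that annotation, of which 0 are rows of the table by name, so its level is uncertain where reads match both.

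Intron number was a feature the list did not use. Over the 34 members, Spearman's rho between the number of introns in the GENCODE v29 model and the log2 fold change was -0.58 with pladienolide B and -0.53 with indisulam, beside -0.22 and -0.24 over 12279 protein-coding genes tested. Pearson's r was -0.39 and -0.32 over the members, beside -0.12 and -0.18 over those genes. These are descriptions across genes that share libraries, and genes are not independent replicates. Of the 10 members with at most 10 introns, 6 rose and 3 fell with pladienolide B, and of the 24 with more, 3 rose and 12 fell. The same split over all genes was 40.1% higher and 34.6% lower with at most 10 introns, and 23.3% and 49.8% with more. The same total per library gave 4 higher and 4 lower of the 10, and 0 higher and 21 lower of the 24, beside 18.9% and 54%, and 5.54% and 72.8%, of all genes. With indisulam 2 rose and 0 fell of the 10, and 1 rose and 7 fell of the 24, beside 16.8% and 9.34%, and 10.2% and 23.2%, of all genes. With the replicate block the indisulam counts were 4 higher and 1 lower of the 10, and 3 higher and 14 lower of the 24, beside 26.4% and 12.9%, and 15.2% and 29.3%, of all genes. UTP3, with 0 introns, belongs to 264 tested intronless genes. Of these, 64.4% were higher and 12.1% lower with pladienolide B, and 32.6% higher and 1.14% lower with indisulam. Under the same total per library, 43.9% of them were higher and 23.5% lower with pladienolide B. The logarithm of the gene's span gave rho of -0.36 and -0.52 over the members and -0.24 and -0.07 over all genes, and span and intron number cannot be told apart here.

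**Figure D3:**
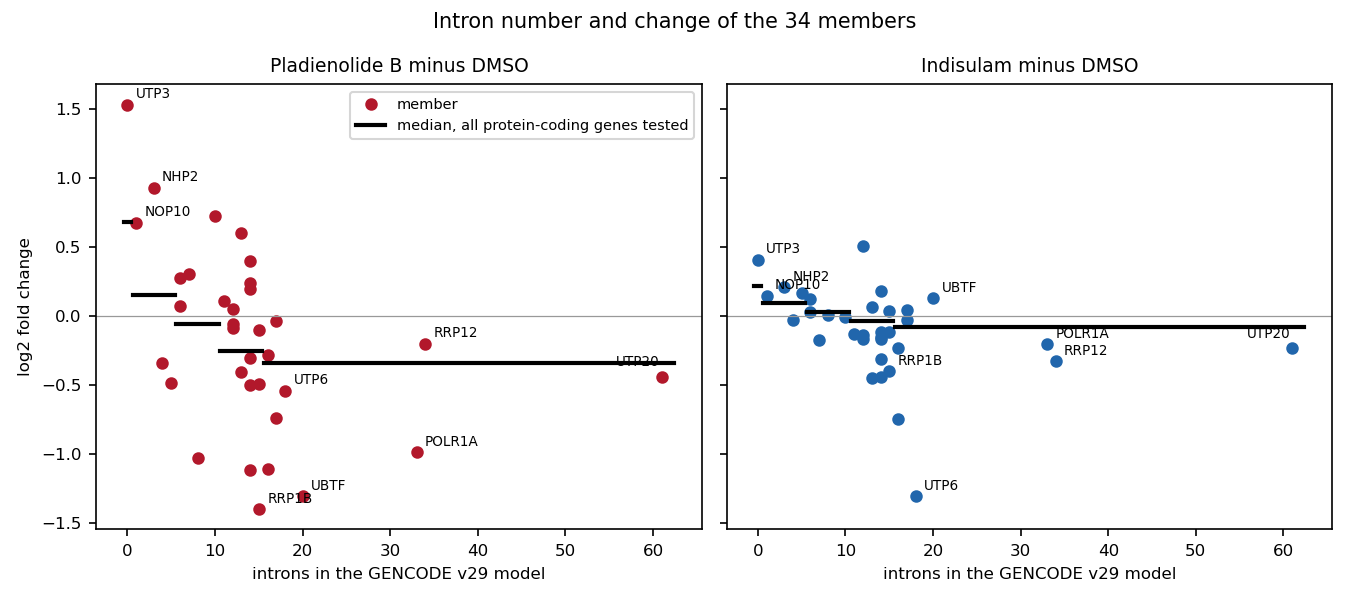
Number of introns in the GENCODE v29 model (x axis) and log2 fold change (y axis) of the 34 members for pladienolide B minus DMSO (left) and indisulam minus DMSO (right); black lines are medians of all tested protein-coding genes in bins of intron number, the last covering 16 introns or more. UTP3, with 0 introns, is at 1.53 and 0.41, and UTP20, with 61 introns, at -0.44 and -0.23.

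Of the 34 members, 6 host snoRNA genes in the GENCODE v29 models: NOP56, NOP58, DKC1, NCL, WDR43 and GNL3. With pladienolide B 2 of these rose, 2 fell and 2 did not pass the test, against 7 higher and 13 lower of the 28 others, beside 34.3% and 35.5% of all features. The same total per library gave 0 higher and 4 lower of the 6, against 4 higher and 21 lower of the 28, beside 16.2% and 53.9%. With indisulam 0 were higher and 1 lower of the 6, against 3 higher and 6 lower of the 28, beside 14.5% and 12.4%. With the replicate block these were 0 higher and 3 lower of the 6, against 7 higher and 12 lower of the 28, beside 21.1% and 16.3%. The table lists 17 snoRNA features within the spans of 5 members, NOP56, NOP58, NCL, WDR43 and GNL3, a set chosen after the data were seen. Only 11 of the 17 passed the filter for testing. For 16 of the 17, every pladienolide B library was above every DMSO library, while with indisulam this held for 4, and 1 was below (over all features with any read, 24.8% were below with pladienolide B and 14.4% with indisulam). Among all 225 snoRNA features with any read the share above was 63.6% with pladienolide B and 16.9% with indisulam, and among all 27064 features with any read it was 24.9% and 18.7%. SNORD11, in NOP58, had 142 to 184 normalised reads in pladienolide B libraries, 2.75 to 11.5 in indisulam libraries and 5.09 to 5.86 in DMSO libraries. SNORA51, in NOP56, had 187 to 278 with pladienolide B, 9.40 to 20.2 with indisulam and 14.2 to 19.8 with DMSO. SNORD20, in NCL, had 59.2 to 104 with pladienolide B, 0 to 2.09 with indisulam and 0.825 to 1.68 with DMSO, so its indisulam and DMSO values lie under the limit of 3 reads. SNORD53B, in WDR43, is among the 16 but had only 2.54 to 4.01 with pladienolide B, near that limit. The host row need not move with them: GNL3 fell with pladienolide B, while SNORD69 within it had 41.3 to 107 with pladienolide B, 8.24 to 19.9 with indisulam and 0.838 to 4.95 with DMSO. Averaged over all 9 libraries, these features were a small part of the host signal, at most 1.39% of its mean, for SNORD110 in NOP56. With pladienolide B alone that part was larger for SNORD110, which had 325 to 458 normalised reads beside a NOP56 mean of 15715. Mature snoRNAs carry no poly(A) tail, and the origin of these reads was not tested.

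A wider view of the pathway came from 126 other factors, of 133 listed, that were matched and tested. With pladienolide B 36 were higher and 55 lower, a share of 28.6% and 43.7% beside the 34.3% and 35.5% of all features, and with indisulam 29 were higher and 18 lower, a share of 23.0% and 14.3% beside 14.5% and 12.4%. With equal totals 13 were higher and 96 lower with pladienolide B, a share of 10.3% and 76.2% beside 16.2% and 53.9%. By list, 1 was then higher and 6 lower of the 9 snoRNP assembly factors, and 1 and 24 of the 27 processome factors. Of the 11 other 40S factors, 1 was higher and 9 lower with pladienolide B at equal totals. With indisulam, equal totals gave 19 higher and 21 lower of the 126, a share of 15.1% and 16.7% beside 10.2% and 15.1%. The indisulam falls then outnumbered the rises, unlike under the deposited scaling. Genes are named from each list by the size of their called change, 2 rises and 2 falls per drug at most. The paired values are log2 fold changes, pladienolide B minus DMSO and then indisulam minus DMSO, with SE of 0.05 to 0.24, and every gene said to rise or fall was called by limma. Under the same total per library the pladienolide B rises of PIH1D1, BMS1, TSR3 and POLR1F and the indisulam rises of MPHOSPH10 and WDR3 were not called, while the other changes named here were. Of 9 snoRNP assembly factors, 3 rose and 6 fell with pladienolide B, and 4 rose and 1 fell with indisulam. SNU13 (0.70 and 0.16), a shared C/D and U4 protein, and PIH1D1 (0.49 and -0.093), of the assembly chaperone, rose with pladienolide B. NUFIP1 (-1.47 and 0.29) and ZNHIT6 (-0.83 and 0.56), both C/D assembly factors, fell with pladienolide B. ZNHIT6 and the H/ACA assembly factor NAF1 (-0.39 and 0.48) rose with indisulam, and RUVBL2 (0.39 and -0.23), an assembly ATPase, fell. Of 27 other processome factors, 5 rose and 10 fell with pladienolide B, and 3 rose and 4 fell with indisulam. IMP3 (0.92 and 0.11), of the U3 particle, and BMS1 (0.29 and -0.012), a GTPase, rose with pladienolide B. UTP25 (-2.42 and 0.37) and NGDN (-1.91 and 0.14) fell. With indisulam MPHOSPH10 (0.035 and 0.34) and WDR3 (-0.42 and 0.33) rose, and EMG1 (0.063 and -0.73), an rRNA methyltransferase, and NOL10 (-0.10 and -0.46) fell. Of 11 other 40S factors, 2 rose and 4 fell with pladienolide B, and 2 rose and 3 fell with indisulam. BUD23 (0.85 and 0.096), an rRNA methyltransferase, and TSR3 (0.55 and 0.053) rose with pladienolide B, and the kinase RIOK1 (-1.12 and -0.31) and LTV1 (-0.84 and 0.088) fell. With indisulam RRP36 (-0.17 and 0.50) and the kinase RIOK2 (-0.19 and 0.47) rose, and the dimethyltransferase DIMT1 (-0.30 and -1.03) and TSR1 (0.086 and -0.43) fell.

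Of 49 other 60S factors, 15 rose and 25 fell with pladienolide B, beside 34.3% higher and 35.5% lower of all features. With indisulam 10 rose and 6 fell, beside 14.5% and 12.4%. Equal totals gave 7 higher and 35 lower with pladienolide B, beside 16.2% and 53.9%. They gave 7 higher and 9 lower with indisulam, beside 10.2% and 15.1%. RRS1 (1.88 and 0.20), which brings the 5S particle into the precursor, and ZNF622 (1.67 and 0.30) rose with pladienolide B. DDX31 (-1.56 and 0.56), a helicase, and NOC3L (-1.47 and 0.59) fell with pladienolide B and rose with indisulam. With indisulam HEATR3 (-0.89 and -0.68) and MAK16 (-0.61 and -0.57) fell. Of 10 other RNA polymerase I genes, 2 rose and 5 fell with pladienolide B, and 4 rose and 1 fell with indisulam, against the same backgrounds. At equal totals 1 was higher and 8 lower with pladienolide B. TAF1D (1.81 and 0.68), a subunit of the promoter factor SL1, and the polymerase subunit POLR1F (0.47 and 0.35) rose with both drugs. TAF1B (-1.11 and -0.46), of the same promoter factor, fell with both, and the shared subunit POLR1C (-1.10 and 0.19) fell with pladienolide B. Of 20 exosome and rRNA trimming genes, 9 rose and 5 fell with pladienolide B, beside 34.3% higher and 35.5% lower of all features. With indisulam 6 rose and 3 fell, beside 14.5% and 12.4%. The pladienolide B balance turned at equal totals, with 2 higher and 14 lower, beside 16.2% and 53.9%. The exosome subunits EXOSC6 (0.83 and 0.21) and EXOSC5 (0.68 and 0.046) rose with pladienolide B. POP1 (-1.64 and -0.62), of RNase P and MRP, and MPHOSPH6 (-0.78 and 0.046) fell with pladienolide B. With indisulam EXOSC7 (0.30 and 0.60) and RPP40 (0.035 and 0.47) rose, and EXOSC8 (0.094 and -0.85) and POP1 fell.

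Within a group, the members tended to deviate together by library. Of the 34, 26 were lowest in replicate 1 of pladienolide B, 31 in replicate 1 of indisulam and 25 in replicate 1 of DMSO, while 26 were highest in replicate 3 of pladienolide B, 24 in replicate 3 of indisulam and 27 in replicate 3 of DMSO. The share of all features lowest or highest in these libraries is not given here. The median member deviation from the group mean of log2(value + 1) was -0.15 in pladienolide B replicate 1 and 0.14 in pladienolide B replicate 3, -0.13 and 0.081 in those of indisulam, and -0.067 and 0.070 in those of DMSO. Medians over all features lay between -0.0032 and 0.018. Scaling by a size factor holds those medians near 0, so they cannot show whether members deviate more than other genes. What the replicate number stands for is not given in the labels, and its link to the members was not tested. The calls of the block that accounts for it, all by limma, added NOP56, DKC1, RRP9 and RRP12 to the members called with pladienolide B, and 12 members to those called with indisulam, of which RRP12, at -0.32 on the log2 scale, had the largest change.

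**Figure D4:**
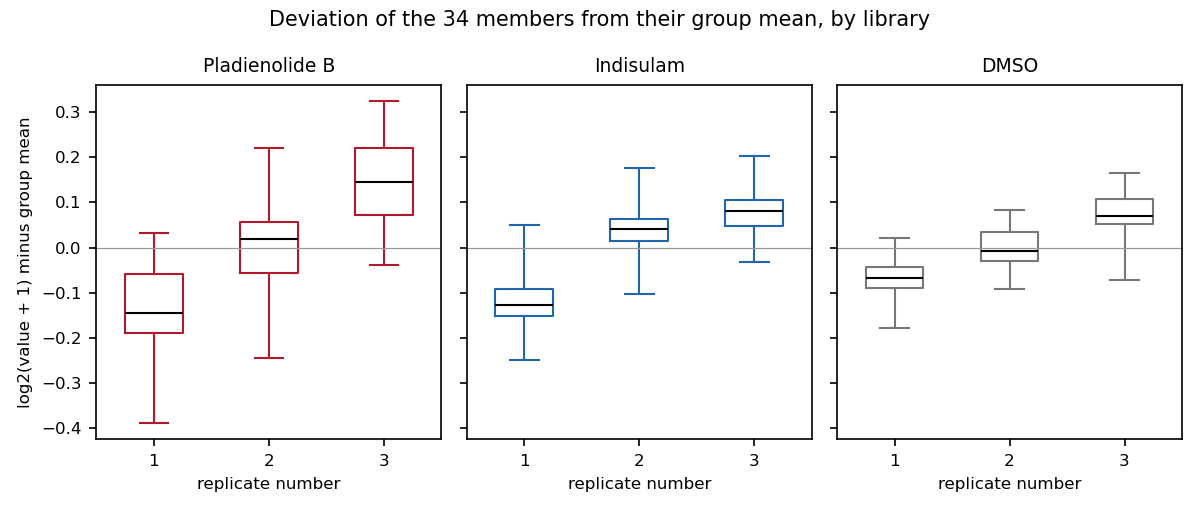
Deviation of the 34 members from their group mean on the log2(value + 1) scale (y axis), by replicate number (x axis) for pladienolide B, indisulam and DMSO; boxes are quartiles, the black line the median and whiskers the full range. The median lies at -0.15, -0.13 and -0.067 in the libraries numbered 1 and at 0.14, 0.081 and 0.070 in those numbered 3.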

How the data were processed

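Polyadenylated RNA was sequenced from 9 libraries of MDA-MB-231 cells, 3 per group. RNA was column-purified with DNase treatment and a stranded mRNA kit of the second-strand type was used, per the labels' protocols. STAR 2.7.5a, SAMtools, Picard, FastQC, DESeq2 and the build hg38 appear in the submitters' processing notes. How reads were counted, and with which strand setting, is not given in the sources used here. Each deposited signal value is the read count of a feature divided by a DESeq2 size factor of the library, made by the authors, per the table's name. Feature identifiers are those of FAST DB, and no column of per-sample values was left out.

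Whole reads were recovered from the signal of each library: 100% of values were whole within 0.01. The deposited values being normalised and not raw counts, R 4.3.3 with limma 3.58.1 was applied to log2(value + 1) of all 9 libraries together, with group means and a mean trend in the variances. Tests were two-sided, at a Benjamini-Hochberg adjusted p of 0.05 over 16846 features with a mean of at least 10. The log2(value + 1) scale understates changes of low features. Alternatives were edgeR 4.0.16 and DESeq2 1.42.0 on the recovered reads, other scalings, pseudocounts, filters and library sets, and a term for the replicate number. Same-numbered libraries of different groups deviated together, with a correlation of 0.10 to 0.38 in each of 9 pairs, against -0.29 to 0.12 in the 18 pairs of unlike number, over features with a mean of at least 100, so the number was taken as pairing the libraries. That pairing was inferred from these data and is not in the labels. The ranges overlap, and deviations from a group mean tie the correlations of like and unlike number to each other. Within groups, every pair of libraries differed by more than sampling noise, with a chi-square per gene of at least 8.74.

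Gene models are those of GENCODE v29 and promoters those of RefSeq on GRCh38.p14; the deposited coordinates are on hg38. All members were named, with at most 2 rises and 2 falls per drug from each list of other factors, and MYC, RBM39 and SF3B1 in any case. The members and lists were chosen with earlier results of these data known. The E-box windows and the snoRNA features were added after the data were seen.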

Additional observations from a re-analysis of the deposited data

How the results depend on the processing

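Under 19 alternatives, most member values kept their direction and side of the threshold. Several of these cannot move a log2 fold change: the filters, the replicate block, and fits that drop libraries of the group not compared. Direction was kept there by construction, and only the adjusted p could change. With the same total per library, which sets the summed signal equal between groups, 4 members were higher and 25 lower with pladienolide B than with DMSO (median -0.62), and 5 higher and 21 lower with pladienolide B than with indisulam (median -0.39). Under that scaling the sign turned against DMSO for NOP56 (-0.36), NOP58 (-0.074), DKC1 (-0.28), GAR1 (-0.40), UTP15 (-0.42), BYSL (-0.20), PES1 (-0.23) and MRTO4 (-0.17), and against indisulam for NOP56 (-0.18), DKC1 (-0.060), NOLC1 (-0.34), UTP18 (-0.38), BYSL (-0.18), PES1 (-0.35), WDR12 (-0.34) and POLR1B (-0.40). For indisulam against DMSO, 6 members were higher and 10 lower when only the 6 libraries compared were fitted, beside 20.8% and 16.3% of all features, and the replicate block gave 7 higher and 15 lower, beside 21.1% and 16.3%. With the block, pladienolide B had 11 higher and 17 lower against DMSO and 12 higher and 12 lower against indisulam. The block ended no call. The cause of these differences was not tested, beyond the scaling's own construction.

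Leaving out 1 library at a time gave 7 to 10 members higher and 14 to 17 lower with pladienolide B against DMSO. Of the 16846 features, these fits called 5403 to 5735 higher and 5581 to 5967 lower. For indisulam against DMSO, 2 to 5 members were higher and 4 to 8 lower, beside 1565 to 2982 and 1489 to 2386 features. Between the drugs, 10 to 14 members were higher and 11 to 12 lower with pladienolide B, and the calls over all features are not given here. An arm left with 2 libraries shares the spread of the others. Depth limits no member, since all lie far above the value of 3 reads. With 3 libraries a group, changes near the spread between libraries may be missed.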
